A study of Homo sapiens with 11 samples.

Results

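The NOTCH receptors and a set of their direct target genes were examined in established cell lines of T-cell acute lymphoblastic leukemia (T-ALL). The set held 10 genes chosen by name, namely the receptors NOTCH1, NOTCH2 and NOTCH3 and the targets HES1, HES4, HEY1, HEYL, DTX1, NRARP and MYC, out of 19775 genes on the array that could be read from a probe set with 1 gene symbol. All 10 were measured, by 19 probe sets, and where a gene had several, the one of highest average level was read. The series covers 11 lines with 1 HG U133 Plus 2.0 array each, of which 6 are labelled NKL-positive (LOUCY, PEER, JURKAT, CCRF-CEM, ALL-SIL and HPB-ALL) and 5 NKL-negative (SUP-T1, CML-T1 and the MOLT lines 4, 14 and 16), NKL being a subclass of homeobox genes that is aberrantly active in part of T-ALL. The labels name no treatment, and no line has a replicate, so that a value of a line carries no error and the line is the unit of every comparison. LOUCY is used in the study as an immature T-ALL line, CML-T1 derives from a T-lymphoid blast crisis of chronic myeloid leukemia, and SUP-T1 is known for a translocation that joins NOTCH1 to the T-cell receptor beta locus. The labels give no NOTCH1 mutation status, and none was used.

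NOTCH receptors are membrane proteins that are cleaved after contact with a ligand on a neighbouring cell. The released intracellular part enters the nucleus, binds the DNA-binding protein RBPJ together with a MAML coactivator and switches on target genes. In the thymus NOTCH1 commits progenitors to the T-cell lineage, and activating NOTCH1 mutations are among the most frequent lesions of T-ALL, in which MYC is a major target.

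Among these targets, the HES genes carry RBPJ binding letters close to their start, which are shown here because HES1, HES4 and HES5 differed widely between the lines. The stretches run from 120 to 21 bases before the annotated start, 5′ to 3′ in the direction of the gene, with TGGGAA in capitals, and were taken from RefSeq on GRCh38.p14 (HES1 at chr3:194136028-194136127 on the plus strand, HES4 at chr1:1000118-1000217 and HES5 at chr1:2530284-2530383 on the minus strand).
HES1: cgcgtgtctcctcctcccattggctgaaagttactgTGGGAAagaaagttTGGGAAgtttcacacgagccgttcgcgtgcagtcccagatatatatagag
HES4: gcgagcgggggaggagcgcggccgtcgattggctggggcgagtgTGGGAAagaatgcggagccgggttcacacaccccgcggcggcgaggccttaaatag
HES5: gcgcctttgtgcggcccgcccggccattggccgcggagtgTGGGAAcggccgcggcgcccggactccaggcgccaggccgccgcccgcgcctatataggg
HES1 held this motif 84 and 70 bases before its start, HES4 76 and HES5 80 bases before. The longest run of letters common to HES1 and HES4 before the start had 12 bases, tgtgggaaagaa. Of the 10 genes, 7 had a window of 300 bases in the RefSeq table, and TGGGAA or its reverse complement TTCCCA lay in 3 of them, HES1, HES4 and HEYL. Of all 35116 windows of this length 24% held it, and 6.25% held the longer GTGGGAA or TTCCCAC, of which each match contains the shorter motif. These 3 genes held the longer form as well. A match is only a run of letters and does not show binding.

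The authors' RMA values are log2 levels with array medians between 4.63 and 4.76 and lower quartiles between 3.45 and 3.60. Values near or below the lower quartile were read as background without an order. The poly-A control probe sets, which detect bacterial transcripts added before labelling, had means from 3.01 to 3.14 in CML-T1, HPB-ALL and MOLT-16, against 5.96 to 9.48 elsewhere. These 3 lines were therefore drawn as diamonds where figures show single points. Among the 10 genes, HEYL had all 3 at the bottom and MYC had all 3 at the top. CML-T1 and MOLT-16 were also the lowest lines for NOTCH1, HES4, DTX1 and NRARP, with HPB-ALL higher. Whether this goes with the missing poly-A signal was not tested. All lines had T-lineage identity, with 7 or 8 of 8 T-lineage markers (CD3D, CD3E, CD3G, CD2, CD5, CD7, LCK and ZAP70) above the upper quartile of the array, while 0 of 5 myeloid and 0 of 4 NK-cell markers passed it in any line. Of 5 B-lineage markers 0 to 2 passed it, with CD79A or CD79B, of 4 stromal and endothelial markers 0 to 2, with COL1A1 or PECAM1, and of 3 erythroid and megakaryocyte markers 0 or 1, with ITGA2B in LOUCY.

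NOTCH1, the receptor that drives early T-cell development, ranged from 6.60 in MOLT-16 to 11.13 in SUP-T1 with a median of 9.19. It was at 10.42 in ALL-SIL, 10.24 in MOLT-14 and 10.20 in MOLT-4, at 9.22 in HPB-ALL, 9.19 in CCRF-CEM, 8.29 in PEER and 8.06 in JURKAT, and at 7.08 in LOUCY and 6.67 in CML-T1. Thus SUP-T1, the line with the NOTCH1 translocation, was the highest and MOLT-16, CML-T1 and LOUCY the lowest. The second NOTCH1 probe set gave a similar order (r = 0.92 over 11 lines), with 7.14 in SUP-T1 at the top and 3.58 in MOLT-16 at the bottom. NOTCH3, itself a receptor gene that NOTCH1 activates in T-lineage cells, followed the same division more sharply. It reached 9.76 in SUP-T1, 9.12 in MOLT-14, 9.09 in ALL-SIL, 9.08 in HPB-ALL and 8.81 in MOLT-4. CCRF-CEM with 6.62 and PEER with 6.69 lay between, followed by JURKAT with 5.37 and CML-T1 with 4.59, while LOUCY with 3.66 and MOLT-16 with 3.2 were at background. The second NOTCH3 probe set, with values between 3.52 and 6.46, was only loosely related to the first (r = 0.42), and it put LOUCY at 5.92 and HPB-ALL at 4.28, so that the position of these lines depends on the probe set.

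**Figure D1:**
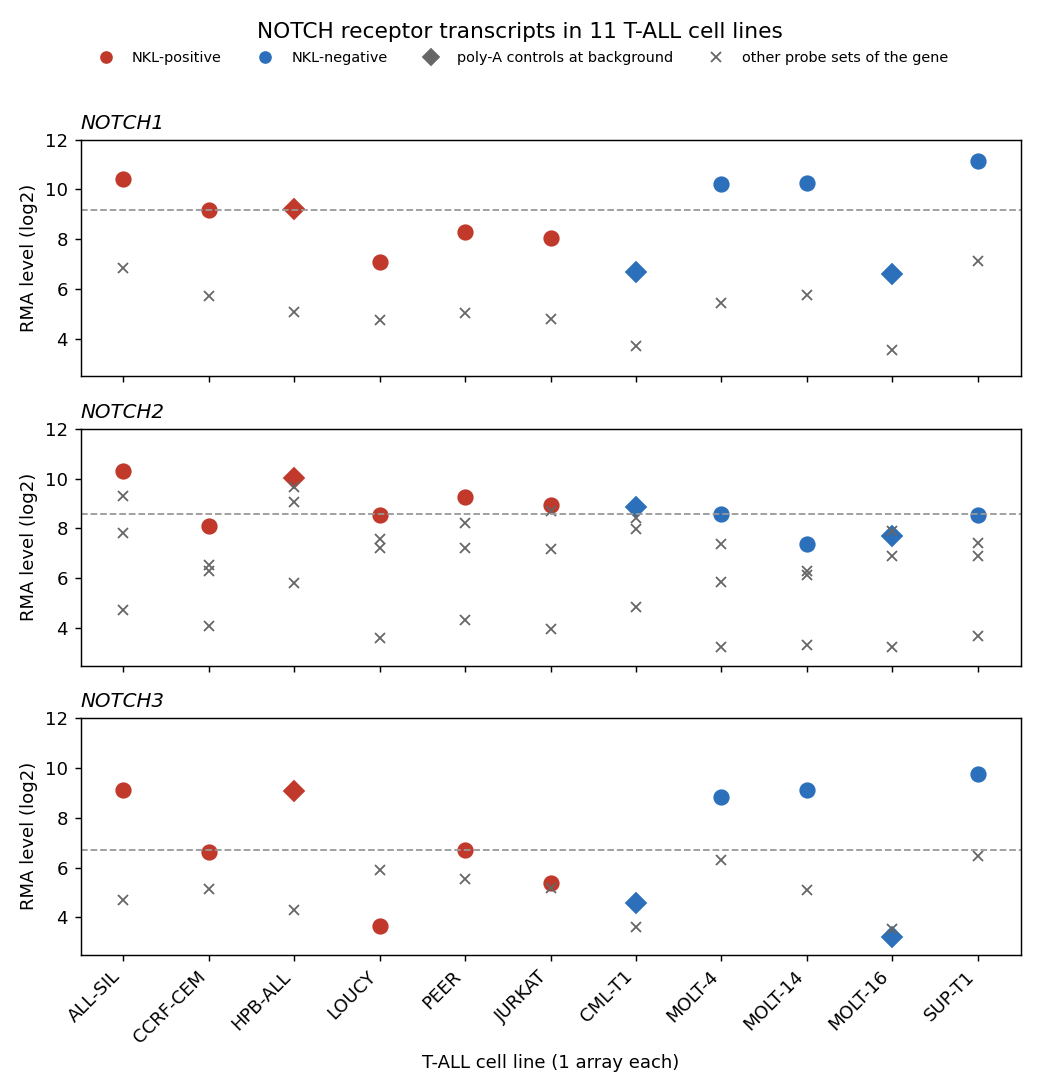
RMA log2 levels (y-axis) of the 3 NOTCH receptors in 11 T-ALL cell lines (x-axis), NKL-positive in red and NKL-negative in blue, diamonds for lines without poly-A signal, crosses for the other probe sets of the gene and dashed lines at the median of the 11 lines. NOTCH1 and NOTCH3 are highest in SUP-T1 and lowest in MOLT-16, while NOTCH2 varies less.

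NOTCH2, a receptor better known from B-cells and also expressed in early progenitors, varied least among the receptors and in another order. It was highest in ALL-SIL with 10.29 and HPB-ALL with 10.01 and lowest in MOLT-16 with 7.69 and MOLT-14 with 7.38. Its range of 2.91 log2 units compares with 4.53 for NOTCH1 and 6.56 for NOTCH3. MOLT-14 was thus near the top for both other receptors and at the bottom for NOTCH2. The other 3 NOTCH2 probe sets correlated with the first at r = 0.87, 0.79 and 0.73. NOTCH2 shares sequence with its NOTCH2NL copies, so that its signal is uncertain in this respect.

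HES1, a repressor of the basic helix-loop-helix class and the classical NOTCH target, followed NOTCH1 less closely than NOTCH3 did. Its level was 9.80 in CCRF-CEM, 9.22 in CML-T1, 9.13 in MOLT-14, 8.95 in PEER, 8.74 in ALL-SIL, 8.09 in SUP-T1, 8.06 in HPB-ALL and 7.82 in MOLT-4. It was at 4.48 in LOUCY, 3.92 in JURKAT and 3.0 in MOLT-16. The 11 lines therefore fell into 8 with high and 3 with low HES1, with a gap of 3.34 log2 units between MOLT-4 and LOUCY. CML-T1 had high HES1 at a low NOTCH1 level. JURKAT had almost no HES1 at a NOTCH1 level of 8.06, below the median of 9.19 but above LOUCY, CML-T1 and MOLT-16. The second probe set gave the same 3 low lines (r = 0.97), whereas the remaining one did not exceed 4.54 in any line.

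HES4, a paralog of HES1 that is present in man but not in mouse, had another pattern. It reached 10.51 in SUP-T1, 9.91 in MOLT-14, 8.96 in HPB-ALL, 8.88 in MOLT-4, 8.70 in CCRF-CEM, 7.92 in LOUCY, 6.99 in JURKAT and 6.69 in PEER. ALL-SIL with 4.60, CML-T1 with 3.91 and MOLT-16 with 3.40 were low. Of the 3 lines with low HES1, LOUCY and JURKAT thus had HES4 well above background, and of the 3 lines with low HES4, ALL-SIL and CML-T1 had high HES1. MOLT-16 was the one line low in both. HES4 was measured by 1 probe set, whose suffix _x_at marks possible cross-hybridization.

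HEY1 and HEYL encode repressors related to the HES family. HEY1 reached 11.63 in SUP-T1, while the next line, MOLT-4, had 6.81 and the lowest, CML-T1, 3.85. SUP-T1 stood at least 4.82 log2 units above every other line, and its second probe set gave 10.77 there and at most 5.43 elsewhere. HEYL was low everywhere, from 3.26 in CML-T1 over a median of 4.97 to 6.0 in LOUCY. Its 3 lowest lines, CML-T1, MOLT-16 with 3.76 and HPB-ALL with 4.11, were the 3 lines without poly-A signal, whose part in this order was not tested. The second HEYL probe set agreed loosely (r = 0.56) and peaked at 5.04 in MOLT-14.

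DTX1, an ubiquitin ligase that modulates NOTCH signalling, and NRARP, an ankyrin repeat protein that limits it, are feedback regulators induced by NOTCH itself. DTX1 was at 10.61 in MOLT-14, 10.36 in ALL-SIL, 9.64 in SUP-T1, 9.28 in HPB-ALL and 8.11 in CCRF-CEM. It was at 6.50 in PEER, 6.41 in MOLT-4, 6.35 in JURKAT and 5.14 in LOUCY, and at background in MOLT-16 with 3.46 and CML-T1 with 3.45. Its highest and lowest lines were those of NOTCH1 and NOTCH3 except for MOLT-4, which had high NOTCH1 and a DTX1 level below the median. NRARP was at 10.68 in SUP-T1 and between 4.44 in CML-T1 and 6.34 in MOLT-14 in all others. Outside SUP-T1, NRARP differed by no more than 1.90 log2 units, and the 6 NKL-positive lines lay between 5.43 and 5.89.

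MYC, the growth regulator that NOTCH1 activates through a distant enhancer in T-ALL, was abundant in 10 lines with values from 10.37 in CCRF-CEM to 12.82 in MOLT-16. In LOUCY it was measured at 3.38, below the lower quartile of the array, so that its distance from the other lines is only bounded from below. The 3 highest lines, MOLT-16, HPB-ALL with 12.56 and CML-T1 with 12.24, were those without poly-A signal. MYC was read from a single probe set with a single symbol, so that the value of LOUCY has no second measurement. Its paralog MYCN, looked up after the MYC values were seen, was highest in LOUCY with 10.16, followed by CCRF-CEM with 8.80 and MOLT-14 with 7.34, against a median of 3.91. A second MYCN probe set was also highest in LOUCY, with 6.71, but was followed by MOLT-4 with 5.86. The order below LOUCY thus depends on the probe set. Of 10 MYCN probe sets 4 were highest in LOUCY and 6 in other lines, and these 6 did not exceed 5.43 in any line. The remaining probe sets of the 4 had only 3.73 and 3.26 in LOUCY, near or below its lower quartile of 3.49. They thus have no order, and the high MYCN of LOUCY rests on the first and second probe sets. MYCL, also looked up, was highest in CML-T1 with 6.33 by 1 probe set and in SUP-T1 with 4.72 by the other. CCRF-CEM, second for MYCN by the first probe set, also had the second lowest MYC.

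**Figure D2:**
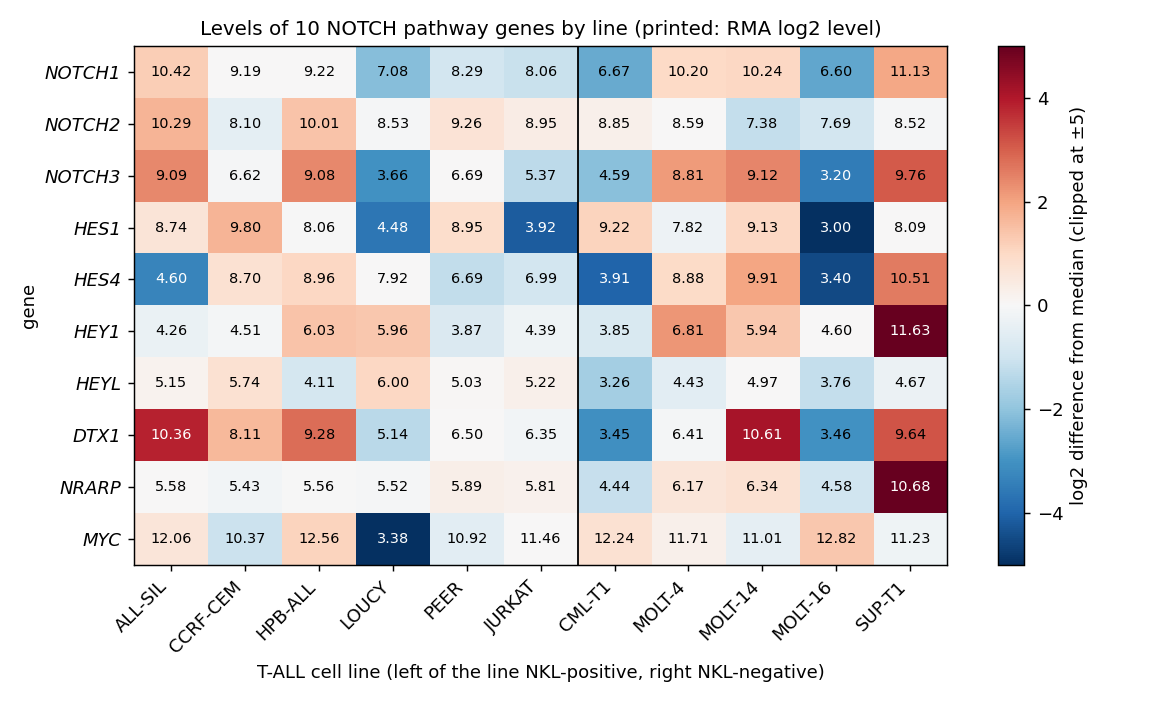
RMA log2 levels (printed) of the 10 genes (rows) in 11 T-ALL cell lines (columns), coloured by the log2 difference from the median of the gene over the lines and clipped at 5 units. SUP-T1 is red for HEY1 and NRARP, MOLT-16 and CML-T1 are blue for NOTCH1, NOTCH3, HES4 and DTX1, and LOUCY is dark blue for MYC.

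A gene was said to stand out in a line whose value exceeded the array median and surpassed the other 10 lines' median by 2 log2 units or more, and to lie low where it was at least 2 units below that median and the median itself was above that of the array. By this rule of size 6 of the 10 genes stood out in at least 1 line, in 15 of 110 pairs of gene and line, where 11.5% of all genes and 1.88% of all pairs did so. Likewise 6 of the 10 lay low in at least 1 line, in 17 pairs, where 9.46% of all genes and 1.58% of all pairs did. NOTCH2 and HEYL did neither. The median range of the 10 genes over the lines was 6.68 log2 units against 1.66 over all genes. Of the pairs that stood out, SUP-T1 held 6 (NOTCH1, NOTCH3, HES4, HEY1, DTX1 and NRARP), MOLT-14 held 3, ALL-SIL, HPB-ALL and MOLT-4 held 2 each, and no other line held any. Of the pairs that lay low, LOUCY held 5 (NOTCH1, NOTCH3, HES1, DTX1 and MYC), MOLT-16 5 (NOTCH1, NOTCH3, HES1, HES4 and DTX1), CML-T1 4 (NOTCH1, NOTCH3, HES4 and DTX1), JURKAT 2 (NOTCH3 and HES1) and ALL-SIL 1 (HES4). By the probe sets read, MOLT-16 thus had low NOTCH1, NOTCH3, HES1, HES4 and DTX1 together with the highest MYC of all lines. LOUCY had low NOTCH1 and NOTCH3 with the lowest MYC. For NOTCH3 every pair, and for NOTCH1 every low pair, was met by only 1 of 2 probe sets. The same held for HEY1 in MOLT-4, and the low HES1 pairs were met by 2 of 3 probe sets. LOUCY was at 5.92 in the second NOTCH3 probe set, whose values ran from 3.52 to 6.46. CML-T1 and MOLT-16 lack poly-A signal, as does HPB-ALL, which held no low pair. The part of the missing signal in these low pairs was not tested. CCRF-CEM and PEER held no pair of either kind.

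Pairs of the 10 genes were compared over the 11 lines as a description, since the lines are single arrays from different leukemias and share array processing. NOTCH1 and NOTCH3 were by the probe sets read the most alike of the 45 pairs (r = 0.95, rho = 0.96). The r was 0.93 without CML-T1 and MOLT-16, the lines farthest from the NOTCH1 median, and 0.98 among the 8 lines with poly-A signal. All these values use the first NOTCH3 probe set, to which the second was only loosely related (r = 0.42). With the mean over the probe sets of each gene, NOTCH1 and NOTCH3 had an r of 0.94, below HEY1 and NRARP with 0.96. DTX1 followed NOTCH1 (r = 0.89, rho = 0.90) and NOTCH3 (r = 0.88, rho = 0.91), and among the 8 lines with poly-A signal these values were 0.81 and 0.79. HEY1 and NRARP had an r of 0.92 but a rho of 0.47, and without SUP-T1 and MOLT-4 the r was 0.40. SUP-T1 lay 4.82 log2 units above the next line for HEY1 and 4.34 for NRARP. As SUP-T1 and MOLT-4 were left out together, their parts in this r were not separated. NRARP followed NOTCH1 less closely (r = 0.68, rho = 0.76). HES1 had an r of 0.54 and a rho of 0.29 with NOTCH1. HES4 had an r of 0.66 with NOTCH1 over the 11 lines and 0.31 without CML-T1 and MOLT-16, and an r of 0.61 and 0.16 with DTX1, so that these relations rest on CML-T1 and MOLT-16. At the other end stood HEYL and MYC (r = −0.67, rho = −0.80) and HES4 and MYC (r = −0.24, rho = −0.36). In 36 pairs r was above 0, and the median r was 0.29.

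**Figure D3:**
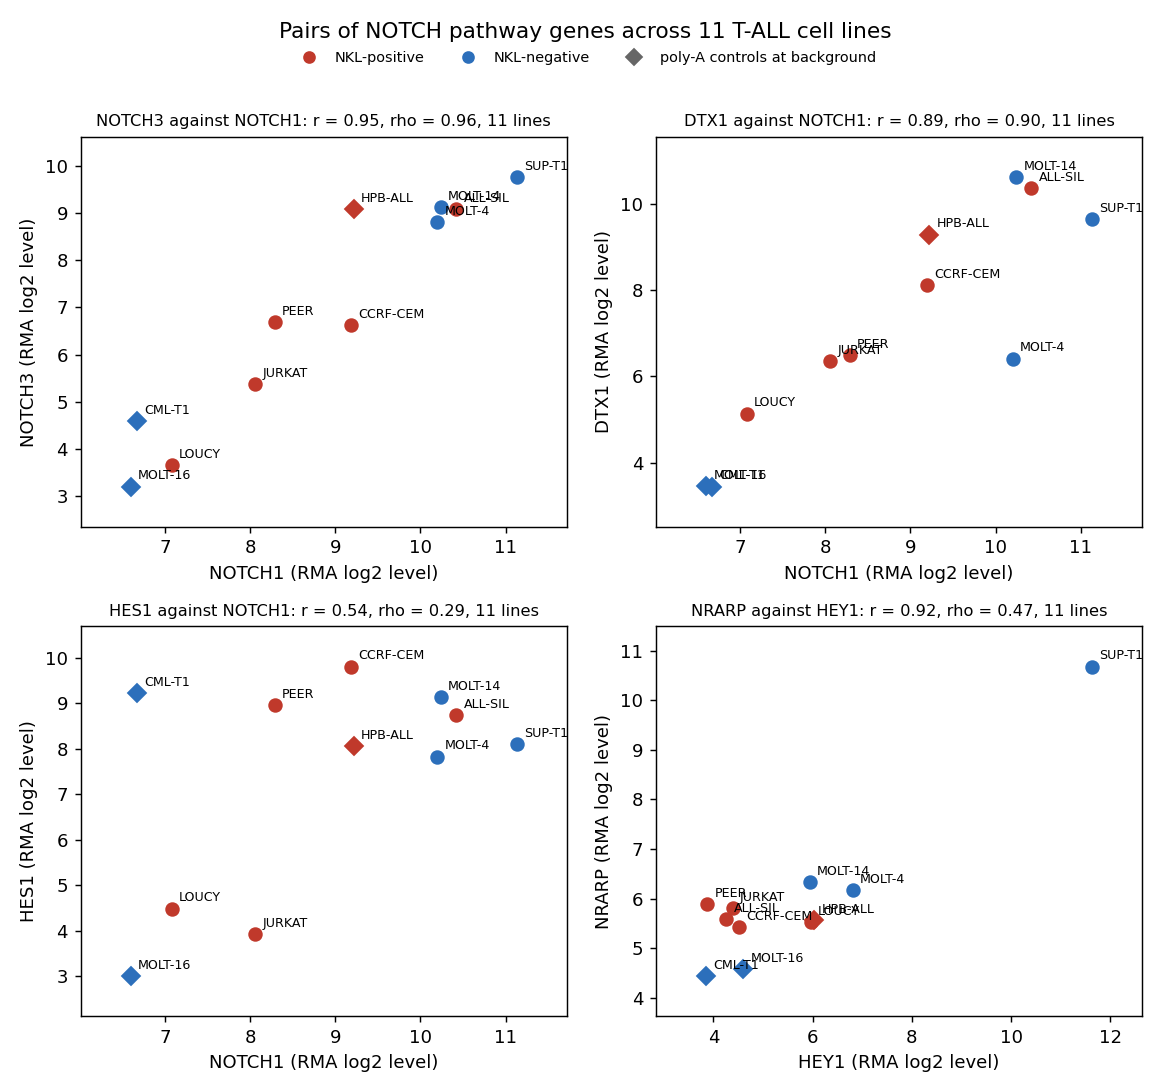
RMA log2 levels of pairs of genes in 11 T-ALL cell lines, 1 labelled point per line, NKL-positive in red, NKL-negative in blue and diamonds for lines without poly-A signal. NOTCH3 and DTX1 climb with NOTCH1 except for DTX1 in MOLT-4, HES1 is low in LOUCY, JURKAT and MOLT-16 only, and SUP-T1 stands apart for HEY1 and NRARP.

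Of the 7174 genes with a range of at least 2 log2 units and a highest value above the median of the array, those most like each member over the 11 lines were listed by r. For NOTCH1 they were NOTCH3 (0.95), SRRM3 (0.92) and DRICH1 (0.92), and for NOTCH3 they were NOTCH1, SRRM3 (0.91) and TTC23 (0.91). The nearest gene to NOTCH1 was thus another receptor of the family, as read from the first NOTCH3 probe set only. DTX1 was closest to VANGL1 (0.90), VESTAR (0.89) and NOTCH1 (0.89). HES1 was closest to TOGARAM1 (0.96), TRAT1 (0.88), an adaptor of the T-cell receptor, and SLIT1 (0.87), and HES4 to CNN3 (0.91), ZNF415 (0.88) and UBE2T (0.86). HEY1 resembled PRL (0.92), NRARP (0.92) and LINC01198 (0.91), and NRARP resembled DNAH9 (0.97), LINC01198 (0.96) and ROR2 (0.96), genes with their highest level in SUP-T1. MYC resembled GABPB2 (0.97), SDHAF3 (0.96) and CCNC (0.96), each lowest in LOUCY. NOTCH2 was nearest to ZNF404 (0.83), CD81 (0.80) and LZTS1 (0.78), and HEYL to ITGB4 (0.96), NCF1 (0.96) and ATP13A2 (0.95). With 11 points and 7174 candidates, values of this size are the extreme of many and are given as a description only.

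The other genes of the pathway were taken from 7 lists with 70 genes, of which 65 were measured. Among 6 ligands, JAG2 stood out in CML-T1 with 7.25 against a median of 5.21 over the lines, and DLL4 did not exceed 6.60. The fringe enzymes modify receptors and set which ligands they accept. Of these, MFNG was between 7.12 and 9.92 in 9 lines and low in SUP-T1 with 5.34 and HPB-ALL with 4.05, while LFNG and RFNG did not stand out or lie low. None of the 8 measured genes of receptor cleavage, which include the gamma-secretase subunits NCSTN and PSENEN, stood out or lay low in a line.

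In the nuclear complex, the coactivator MAML3 was the most variable of 11 measured genes. It reached 8.22 in PEER, 7.99 in LOUCY and 7.50 in ALL-SIL, and was at 4.15 in SUP-T1, 3.39 in MOLT-4 and 2.88 in JURKAT. MAML2 had a median of 3.50 and stood out in HPB-ALL at 6.29. MAML1 was measured at 9.96 in SUP-T1 and between 7.96 and 9.49 in the other lines. Thus the lines with the least MAML3 included SUP-T1, in which NOTCH1, HEY1 and NRARP were highest.

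Among 14 genes of turnover and endocytosis, FBXW7, the ubiquitin ligase subunit that marks the NOTCH intracellular part and MYC for degradation, was at 4.04 in PEER and between 6.88 and 8.93 elsewhere. CCNC, the cyclin that with its kinase targets the same NOTCH part for turnover, was at 2.87 in LOUCY and between 9.43 and 11.20 elsewhere. LOUCY therefore read at background for both CCNC and MYC. DTX3 was at 3.83 in MOLT-14, 3.89 in MOLT-16 and 4.03 in JURKAT and at 7.50 or above in the other lines. DTX4 reached 7.60 in LOUCY, where DTX1 was low, and 3.60 in ALL-SIL, where DTX1 was high, but MOLT-14 had 7.52 of DTX4 with the highest DTX1.

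Of the further HES and HEY genes, HES5, whose upstream sequence is shown above, stood out in SUP-T1 alone with 8.08 while the other 10 lines lay between 3.2 and 4.64. HES2 and HES7 were low throughout, at most 6.02 and 5.77, and lowest in the 3 lines without poly-A signal, as was HEYL. Of 15 measured T-lineage targets, 7 stood out and 4 lay low in a line or more, against 11.5% and 9.46% of all genes. CR2, a complement receptor, was at 11.51 in MOLT-14, 11.06 in HPB-ALL, 8.53 in SUP-T1, 7.99 in MOLT-4 and 6.89 in CCRF-CEM and did not exceed 4.96 in the other 6 lines, ALL-SIL with its high NOTCH1 and DTX1 among them at 3.45. IL7R, the interleukin 7 receptor, was at 10.98 in HPB-ALL and 9.13 in SUP-T1, where it stood out from a median of 5.35. LZTFL1 was between 8.19 and 9.89 in 8 lines but at 6.65 in MOLT-16, 5.52 in LOUCY and 3.62 in CML-T1, the 3 lines with the lowest NOTCH1. BCL2, the survival factor, was highest in CML-T1 with 10.85 and LOUCY with 10.25 against a median of 7.15. PTCRA, the pre-T-cell receptor alpha chain, was looked up after the values were seen and was highest in SUP-T1 with 9.91, followed by HPB-ALL with 8.56 and MOLT-4 with 8.39.

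**Figure D4:**
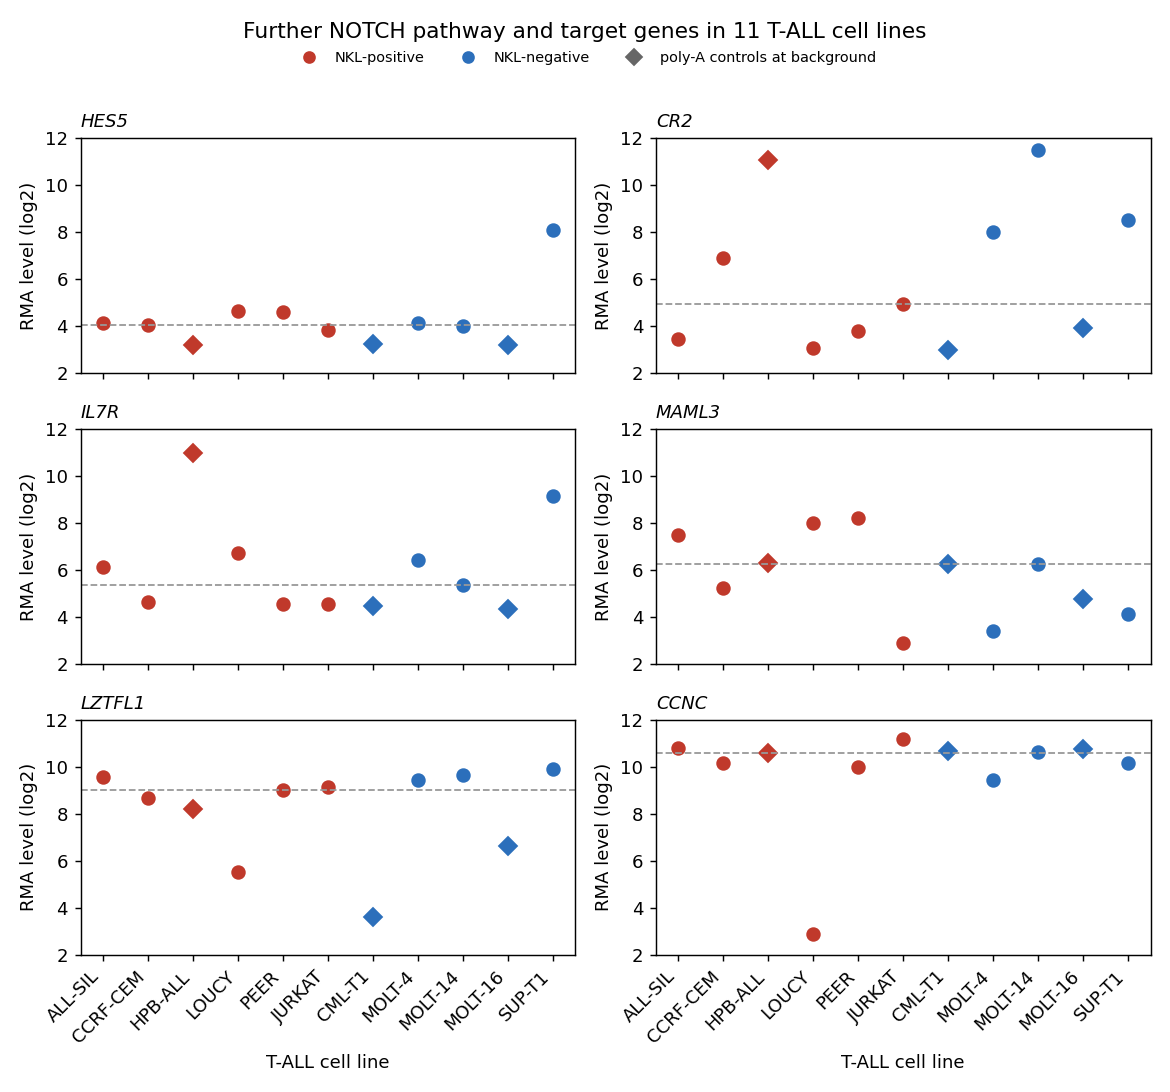
RMA log2 levels (y-axis) of 6 further genes of the pathway in 11 T-ALL cell lines (x-axis), NKL-positive in red, NKL-negative in blue, diamonds for lines without poly-A signal and dashed lines at the median. HES5 is high in SUP-T1 only, CR2 in 5 lines, and CCNC is at background in LOUCY only.

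The study compared NKL-positive with NKL-negative lines, 5 against 5, without JURKAT. None of the 10 genes differed between these groups by limma's test, the smallest adjusted p being 0.981, where 0.00916% of all probe sets did, and of all genes 0.0152% were lower and 0 higher. At an unadjusted p under 0.05 were 2 of the 10, against 5.26% of all genes. HEYL was higher in the NKL-positive lines, with 5.21 ± 0.73 against 4.22 ± 0.70 (SD, n = 5 each), a log2 difference of 0.99 (SE 0.42, limma adjusted p = 0.981), although its second probe set pointed the other way. NOTCH2 was at 9.24 ± 0.94 against 8.21 ± 0.63 (SD, n = 5 each), a difference of 1.03 (SE 0.46, limma adjusted p = 0.981), and its 4 probe sets pointed the same way. NOTCH1 differed by −0.13 (SE 0.98) and NOTCH3 by −0.07 (SE 1.46), and for both the second probe set pointed the other way. Targets with larger differences were MYC at −1.94 (SE 1.48), HEY1 at −1.64 (SE 1.26), DTX1 at 1.16 (SE 1.55) and NRARP at −0.85 (SE 0.99). HES1 with 0.55 (SE 1.29) and HES4 with 0.05 (SE 1.5) differed least among the targets. For each of these 6 targets the SD of at least 1 group exceeded the difference, for NRARP 0.17 (SD, n = 5) in the NKL-positive and 2.53 (SD, n = 5) in the NKL-negative lines, in which SUP-T1 lies.

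The groups overlapped for all 10 genes, where 0.905% of all genes had groups without overlap. Higher in the NKL-positive lines were 5 of the 10 and lower 5, with a median difference of −0.008, the median over all genes being −0.002. Single lines set several of these values. Without LOUCY the difference of MYC was −0.32, and without SUP-T1 that of HEY1 was −0.37 and that of NRARP 0.21. Among the 7 compared lines with poly-A signal, HES4 differed by −2.79, NOTCH3 by −2.72, NOTCH1 by −1.78 and DTX1 by −1.36, while among the 3 without it, HPB-ALL against CML-T1 and MOLT-16, the differences were 5.31, 5.19, 2.59 and 5.83. When poly-A signal entered the model as a term, no member passed the test either.

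**Figure D5:**
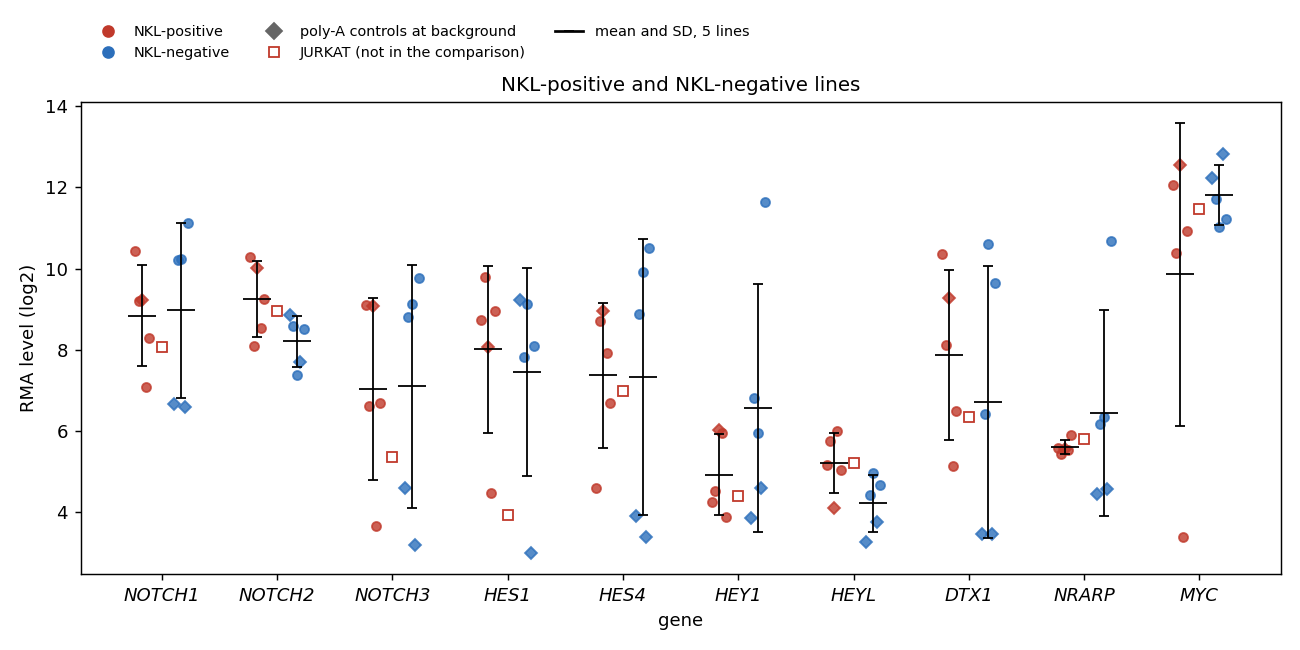
RMA log2 levels (y-axis) of the 10 genes (x-axis) in 5 NKL-positive (red) and 5 NKL-negative (blue) T-ALL cell lines, dashes giving the mean and bars the SD of each group (n = 5), JURKAT as an open square and diamonds for lines without poly-A signal. The groups overlap for every gene, and single lines, LOUCY for MYC and SUP-T1 for HEY1 and NRARP, lie far from the rest.

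Of the 65 other pathway genes, 41 were higher and 24 lower in the NKL-positive lines, and 0 passed limma's test over all probe sets in either direction. The share of all genes that were higher was not computed, so that these counts are a description only. At an unadjusted p under 0.05 were 3 of the 65, against 5.26% of all genes. None of these passed the adjustment, the difference of MAML1 being −0.89 (SE 0.26, limma adjusted p = 0.840), that of RUNX3, a regulator of cytotoxic T-cell fate, 2.40 (SE 0.74, limma adjusted p = 0.927) and that of MAML3 2.08 (SE 0.71, limma adjusted p = 0.981). RUNX3 was between 9.0 and 10.20 in the 5 compared NKL-positive lines and at 9.95 in CML-T1, but in JURKAT it was at 5.30, below all other lines. By list the median differences were 0.10 for the ligands, 0.13 for the fringe and glycosyl transferases, 0.22 for cleavage, 0.08 for the nuclear complex, 0.03 for turnover, −0.10 for the further HES and HEY genes and 0.15 for the T-lineage targets.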

How the data were processed

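Gene expression of 11 T-ALL cell lines was measured on HG U133 Plus 2.0 arrays, 1 per line. The authors processed the arrays by RMA with the affy and limma packages and deposited log2 values, which carry 2 decimals and were used as they are. Quantile normalization gives the spot intensities of all arrays a common distribution, so that total changes in RNA per cell are not seen. The deposited values still differed, with upper quartiles from 6.68 to 7.18. These were highest in CML-T1 (7.18), HPB-ALL (7.14) and MOLT-16 (7.12), the lines without poly-A signal. The 62 control probe sets were set aside, leaving 54613. Gene symbols came from the array annotation (41091 probe sets with 1 symbol, 1801 with several and 11721 with none). All 10 members occur in the RefSeq gene table. The members and pathway lists were chosen with earlier results of these data known, and the lists stand for the NOTCH pathway as generally described. List genes without a probe set of 1 symbol were not analysed here.

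NKL-positive and NKL-negative lines were compared with limma 3.58.1 in R 4.3.3, by moderated linear models over all probe sets with Benjamini-Hochberg adjustment at a threshold of 0.05. JURKAT was left out, as in the study. The procedure was tested on simulated data. Named were the members, the 3 genes most like each, and of each list up to 4 genes that stood out or lay low and the 2 with the smallest p. Genes looked up later are stated. Alternatives covered other choices of lines, scaling, filter, floor, variance model, probe sets, gap and expression bound. The precision is limited by the number of arrays, and nothing states whether lines were grown at the same time. A control of RNA quality, the ACTB level at the 3′ minus the 5′ end, was 1.17 in MOLT-4 and 1.02 in CML-T1. It was 0.95 in MOLT-16, 0.94 in HPB-ALL, and between 0.17 in LOUCY and 0.83 in SUP-T1 elsewhere. Its part in the values of the lines was not tested.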

Additional observations from a re-analysis of the deposited data

Results flagged for a closer look

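In each NKL group the most extreme line of each of the 34 named genes was compared with the range of its group by Dixon's criterion, with JURKAT counted as NKL-positive. Of 68 groups of 5 or 6 lines, 13 held a line far from the others. The nominal rate of the criterion is about 1 in 20 groups. This nominal rate is no reference for the pathway genes here, since many were named for their pattern over the lines. The share over all genes on the array was not computed. Among the members these were HES1 in MOLT-16 with 3.0 (nearest line of the group 7.82) and MYC in LOUCY with 3.38 (nearest 10.37).

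In the NKL-positive group the other lines of this kind were LOUCY for CCNC with 2.87 and for LZTFL1 with 5.52, HPB-ALL for MAML2 with 6.29, for HES2 with 4.33 and for IL7R with 10.98, JURKAT for DTX3 with 4.03 and for RUNX3 with 5.30, and PEER for FBXW7 with 4.04. In the NKL-negative group they were SUP-T1 for MAML1 with 9.96 and for HES5 with 8.08, and MOLT-4 for NUMBL with 11.68. LOUCY thus lay far from its group for 3 of the 34 genes, and HPB-ALL, whose poly-A controls read at background, for 3.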

How the results depend on the processing

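No member passed limma's test between the NKL groups under any of 21 alternatives, the smallest adjusted p being 0.587. Of 210 differences of members under these alternatives 179 kept their direction and 31 reversed, and NOTCH2, HEY1, HEYL and MYC never did. The 5 probe sets that passed became 0 with JURKAT added, 10 without CML-T1 and MOLT-16, and 3 in the lines with poly-A signal only, with a poly-A term or with a floor at the 25th percentile. Leaving out 1 line gave 3 to 13 probe sets, 13 without LOUCY. The mean over probe sets turned NOTCH1 to 0.12 and NOTCH3 to 0.021. HES1 became −0.13 with JURKAT, −0.34 without CML-T1 and MOLT-16 and −0.35 in the lines with poly-A signal. HES4 became −0.012, −2.39 and −2.79 in the same settings, −0.52 with a poly-A term, −0.038 with another quantile normalization and −0.81 with array weights, and DTX1 became −1.01 without CML-T1 and MOLT-16 and −1.36 in the lines with poly-A signal. Leaving out 1 line gave −0.72 to 0.41 for NOTCH1, −1.04 to 0.77 for NOTCH3, −0.56 to 1.44 for HES1, −0.93 to 0.85 for HES4, −1.35 to 0.21 for NRARP, 0.35 (without CML-T1 or MOLT-16) to 2.14 (without MOLT-14) for DTX1, −2.32 to −0.37 for HEY1, −2.62 to −0.32 for MYC, 0.77 to 1.32 for NOTCH2 and 0.75 to 1.26 for HEYL. The cause was not tested.

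Pairs that stood out numbered 33 with a gap of 1 log2 unit and 7 with 3 units, and 10 to 16 when 1 line was left out. Pairs that lay low numbered 32 with a gap of 1 unit, and 15 to 20 when 1 line was left out. With the mean over the probe sets of each gene, 10 pairs stood out and 14 lay low. The correlation of HEY1 and NRARP fell to 0.47 by rank and 0.40 without SUP-T1 and MOLT-4, and that of HES4 and MYC moved to −0.01 without CML-T1 and MOLT-16. No paired analysis was possible because the replicate numbers only count different lines. With 1 array per line, levels near background have no order, and a difference between lines cannot be told apart from one between cultures or arrays.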
